A study of Mus musculus with 12 samples.

Results

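Messenger RNA of the Ly6 surface proteins and of Thy1 was followed in activated CD8 T cells with and without Ezh2. The genes described are Ly6a, Ly6c1, Ly6c2, Ly6e, Ly6g, Ly6d, Ly6k and Thy1, which are 8 of the 25655 genes listed and were found by symbol. They were chosen by name, with no limit on any value, but genotype differences in these libraries were already known when the choice was made. Their adjusted p-values come from a fit over all genes and do not depend on which genes were picked, and they are not independent evidence about the family.

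All libraries came from CD8 T cells of the spleens of female C57BL/6 mice, labelled as wild type (WT) or as Ezh2 knockout (KO). Ezh2 is the catalytic subunit of Polycomb repressive complex 2, which places the repressive histone mark H3K27me3. Naive cells (CD44 low, CD62L high) of either genotype were activated for 2 days with plate-bound antibody against TCR-β at 3 µg/ml and with antibody against CD28 at 1 µg/ml, and IL-2 at 10 ng/ml was present throughout. They then stayed in IL-2 for 1 or 5 days. The 4 groups, WT and KO at day 3 and at day 5, hold 3 libraries each. The day is the one in the titles, although the culture times of the protocol sum to 3 days for the first and to more than 5 days for the second. Neither the knockout allele nor its Cre driver nor the age of the mice is stated in the labels. The labels do not say whether the libraries of a group are separate mice or cultures, so p-values reflect library-to-library spread that may be technical only.

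Ly6 proteins are short, cysteine-rich chains that fold into a compact domain known as the LU domain and are held on the outer cell surface by a glycosylphosphatidylinositol (GPI) anchor. Immunologists know them mostly as antibody targets. Ly6a is Sca-1, a marker of blood stem cells that activated T cells also carry. Ly6c, encoded by Ly6c1 and Ly6c2, marks monocytes and memory CD8 T cells. Ly6g is the standard marker of mouse neutrophils, Ly6e is a broadly expressed member that limits some viruses, Ly6d marks early B-lineage cells, and Ly6k is known from testis. Thy1 (CD90) is a GPI-anchored protein on nearly all mouse T cells, but it belongs to the immunoglobulin superfamily and not to the Ly6 family.

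The 7 Ly6 genes lie in 1 cluster on mouse chromosome 15, and Thy1 lies alone on chromosome 9. On GRCm38, in GENCODE M21, the order along the cluster is Ly6d (ENSMUSG00000034634, chr15:74762056-74763620, minus strand), Ly6k (ENSMUSG00000044678, chr15:74796874-74799986, minus), Ly6e (ENSMUSG00000022587, chr15:74955051-74959905, plus), Ly6a (ENSMUSG00000075602, chr15:74994877-74998031, minus), Ly6c1 (ENSMUSG00000079018, chr15:75044018-75048830, minus), Ly6c2 (ENSMUSG00000022584, chr15:75108158-75111970, minus) and Ly6g (ENSMUSG00000022582, chr15:75155240-75159126, plus). Thy1 (ENSMUSG00000032011) lies at chr9:44043384-44048579 on the plus strand. All 8 are annotated as protein coding. Ly6k is overlapped on the other strand by the antisense gene Gm17189, which the files do not list, and the labels do not say whether counting used strand.

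Several of these genes are near copies, and the libraries read only transcript ends, so the ends decide whether reads can be told apart. The last 120 coding bases of the 4 closest members are shown 5′ to 3′ on the coding strand of GRCm38, with capitals at the 15 positions where the 4 are not all alike.
Ly6c2: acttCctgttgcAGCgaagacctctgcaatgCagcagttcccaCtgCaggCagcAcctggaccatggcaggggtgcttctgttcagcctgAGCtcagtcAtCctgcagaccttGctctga
Ly6c1: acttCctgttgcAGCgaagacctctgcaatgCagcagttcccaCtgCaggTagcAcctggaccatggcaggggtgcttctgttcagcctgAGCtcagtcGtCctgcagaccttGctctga
Ly6g: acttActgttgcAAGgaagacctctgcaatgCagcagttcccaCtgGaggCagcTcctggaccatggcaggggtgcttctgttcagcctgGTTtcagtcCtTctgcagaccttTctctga
Ly6a: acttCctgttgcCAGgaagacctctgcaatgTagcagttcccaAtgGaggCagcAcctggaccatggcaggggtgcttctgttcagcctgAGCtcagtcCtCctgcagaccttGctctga
Over this stretch Ly6c2 differs from Ly6c1 at 2 positions, from Ly6a at 7 and from Ly6g at 11. Over their whole coding sequences Ly6c1 and Ly6c2 were 97.7% identical, Ly6g and Ly6a 83.2%, and Ly6e, Ly6d, Ly6k and Thy1 at most 53.0% identical to any other member. Of all 50-base words in the last 500 bases of their principal transcripts, Ly6c2 shared 34.4% with Ly6c1 and Ly6c1 shared 33.1% with Ly6c2. Ly6g shared none with any member and 0.444% with Ly6i, a relative in the same cluster. Ly6a shared 0.571% of its words, all with Ly6c2, and Ly6e, Ly6d, Ly6k and Thy1 shared none. The search covered only protein-coding transcripts of the members and of other Ly6/uPAR genes found by name. Words shared with the rest of the transcriptome were not looked for. The labels do not say how reads that match several genes were assigned, so the division between Ly6c1 and Ly6c2 is uncertain.

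**Figure D1:**
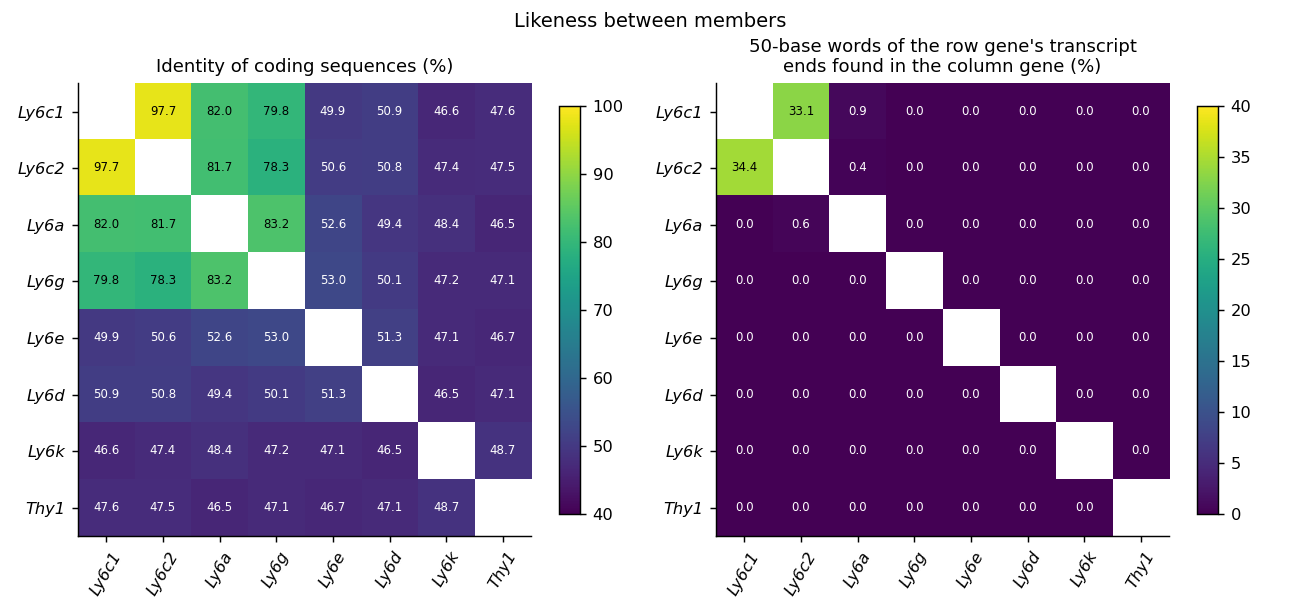
Likeness between the 8 genes. Left, percent identity of aligned coding sequences, with colours from 40 to 100%. Right, percent of the 50-base words in the last 500 bases of the row gene's transcripts that also occur in the column gene. Ly6c1 and Ly6c2 stand out in both panels, at 97.7% coding identity and 33.1 to 34.4% shared words.

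The RefSeq promoter table, on GRCm38.p6, held the start regions of 3 of the 8 genes, Ly6g, Ly6c1 and Ly6c2. They are shown because Ly6g and Ly6c2 both differed between genotypes and Ly6c1 is the near copy of Ly6c2 with few reads. Each runs 5′ to 3′ from 250 bases before the start to 50 bases after it.
Ly6g promoter, chr15:75155011-75155310, plus strand: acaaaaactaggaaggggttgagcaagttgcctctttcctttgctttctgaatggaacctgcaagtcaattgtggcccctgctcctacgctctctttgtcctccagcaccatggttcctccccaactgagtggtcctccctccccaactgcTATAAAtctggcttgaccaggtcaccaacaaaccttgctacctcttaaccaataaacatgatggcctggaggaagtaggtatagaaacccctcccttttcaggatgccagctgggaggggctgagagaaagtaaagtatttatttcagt
Ly6c1 promoter, chr15:75048788-75049087, minus strand: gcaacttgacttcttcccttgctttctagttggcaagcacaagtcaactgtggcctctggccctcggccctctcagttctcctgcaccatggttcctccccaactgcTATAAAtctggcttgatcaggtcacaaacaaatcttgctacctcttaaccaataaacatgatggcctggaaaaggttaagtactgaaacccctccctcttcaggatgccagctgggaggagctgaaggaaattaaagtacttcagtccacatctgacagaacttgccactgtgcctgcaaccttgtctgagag
Ly6c2 promoter, chr15:75111922-75112221, minus strand: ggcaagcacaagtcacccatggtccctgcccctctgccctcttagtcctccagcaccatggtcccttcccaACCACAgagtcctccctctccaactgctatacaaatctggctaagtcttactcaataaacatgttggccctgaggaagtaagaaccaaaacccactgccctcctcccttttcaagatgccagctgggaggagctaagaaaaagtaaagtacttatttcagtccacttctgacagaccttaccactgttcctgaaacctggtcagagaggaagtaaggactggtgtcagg
Capitals mark the matches to 5 motifs searched on both strands, the interferon-stimulated response element (ISRE) core, the STAT motif TTCNNNGAA, the RUNX motif TGTGGT, the AP-1 motif TGANTCA and the TATA box core TATAAA. Ly6g and Ly6c1 each held 1 TATAAA, which 14.2% of 27025 promoters of this length held, and Ly6c2 held 1 RUNX match on the reverse strand, which 16.9% held. The other 3 motifs had 0 matches in these windows and occurred in 3.49% (ISRE core), 8.47% (TTCNNNGAA) and 7.93% (TGANTCA) of promoters. No 2 of the matches overlapped. CpG dinucleotides numbered 1 in Ly6g, 1 in Ly6c1 and 0 in Ly6c2, against a median of 7 over all promoters. In local alignment Ly6g and Ly6c1 were 76.5% identical, Ly6c1 and Ly6c2 73.8%, and Ly6g and Ly6c2 70.3%. A match of letters is a description of the window and not a bound site.

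Values are CPM, a gene's reads for every 1000000 reads counted in that library, given as mean ± SD over 3 libraries. The libraries held 1545391 to 2011247 reads. Log2 differences were fitted with limma on log2(CPM + 1). On that scale a low gene's change comes out too small, and a call means an adjusted p under 0.05 over the 11417 genes tested. KO day 5 replicate 2 differed most from its fellow libraries: comparing reads over genes, chi-square divided by its degrees of freedom was 5.38 and 5.21 for the pairs that include it and 1.34 to 2.45 for all other replicate pairs. Ezh2 itself read 357 to 409 CPM in WT and 311 to 377 CPM in KO at day 3 (log2 difference −0.16 ± 0.15 SE, limma adjusted p = 0.499). At day 5 it read 306 to 319 CPM in WT and 159 to 283 CPM in KO (−0.70 ± 0.15 SE, limma adjusted p = 0.000583). Tags at a 3′ end check a knockout only if the deletion includes that end, and the deleted stretch is not given, so this is no check of the genotype labels. All 10 CD8 T cell markers had reads in every group, with a summed level of 2007 to 3678 CPM per library.

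Ly6a, Ly6e, Thy1 and Ly6g stood higher in KO at both days, and Ly6c2 at day 5. At day 3, 4 of the 7 members that could be tested were called higher in KO, namely Ly6a, Ly6e, Thy1 and Ly6g, beside 11.2% of all tested genes. At day 5, 6 of 7 were called higher, with Ly6c2 and Ly6c1 added, beside 16.5% of all tested genes. By limma 0 members were called lower at either day, where 7.23% of tested genes were lower at day 3 and 22.9% at day 5. At an unadjusted p under 0.05, 0 members were lower at day 3 and 1, Ly6k, at day 5, and edgeR's quasi-likelihood test called 0 lower at both. Without KO day 5 replicate 2 the counts were 4 at day 3 and 5 at day 5, Ly6c1 losing its call. Ly6d had no read and was not tested. Ly6g entered the tests only through KO libraries, since 5 KO and 0 WT libraries reached the 1 CPM that the filter asks of 3 libraries, and Ly6c1 through 5 KO libraries and 1 WT library, so both could hardly have been called lower. Of the other 5 tested members, which did not depend on KO for the filter, 3 were called higher at day 3 and 4 at day 5. Thy1 is among them, and of the 7 Ly6 genes alone 3 were called at day 3 and 5 at day 5. These are levels in bulk RNA, in which a change in RNA per cell and a change in the share of cells that carry it cannot be told apart.

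Members also changed with time in culture. From day 3 to day 5 in WT, Ly6c2 and Ly6e rose, beside 7.17% of tested genes, and Thy1 fell, beside 3.77%. In KO, Ly6g, Ly6a, Ly6c2 and Ly6e rose, beside 15.4% of tested genes, and Ly6k fell, beside 19.7%. The genotype by day interaction asks whether the KO minus WT difference was larger at day 5 than at day 3. It was called larger for 4 of 7 members (Ly6g, Ly6a, Ly6c2 and Ly6e), beside 4.01% of tested genes, and by limma smaller for 0 of 7, beside 8.85%. An unadjusted p under 0.05 and edgeR gave 0 smaller as well. Ly6g entered the tests only through KO libraries, so its rise in KO and its interaction add no weight to these counts. Its interaction was not called by edgeR (adjusted p = 0.863) or by limma at a pseudocount of 0.1 (0.172). Ly6a, Ly6c2 and Ly6e lost theirs without a trend in the moderation (limma adjusted p = 0.0907 to 0.174). These comparisons share libraries, since each group enters several of them, and are given side by side.

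**Figure D2:**
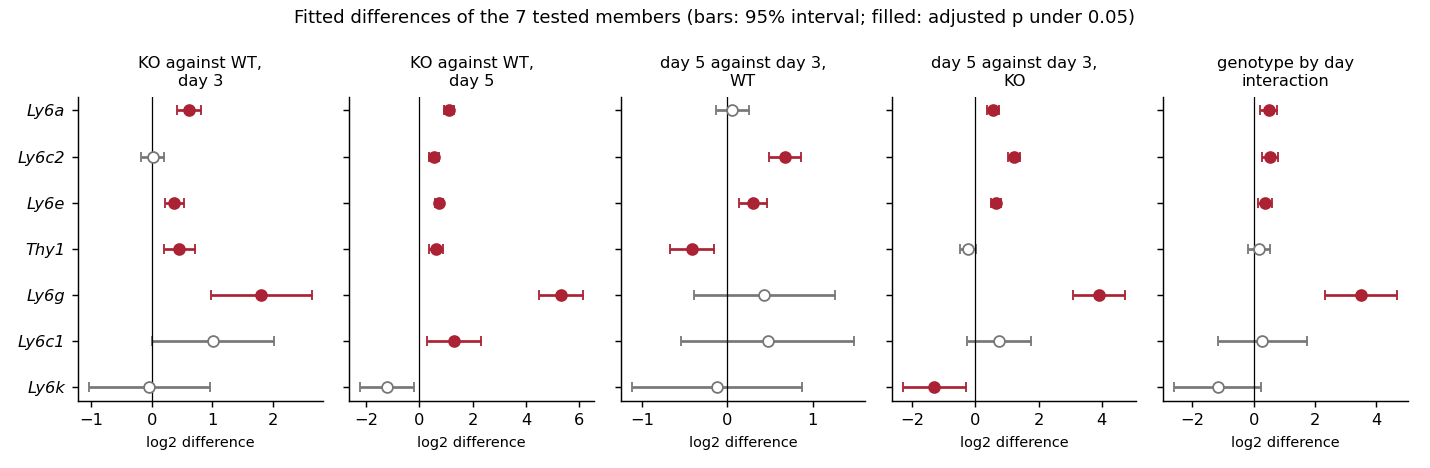
Fitted log2 differences of the 7 tested members, 1 panel per comparison, each with its own horizontal axis. Points are limma estimates on log2(CPM + 1) and bars are 95% intervals, and filled points have an adjusted p under 0.05. Ly6g lies farthest to the right in both KO against WT panels, at 1.82 at day 3 and 5.30 at day 5.

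Ly6c2, one of the pair that encodes the memory marker Ly6C, was higher in KO at day 5 and rose with time in each genotype. At day 3 it read 467, 481 and 470 CPM in WT and 494, 509 and 433 CPM in KO. The libraries of the genotypes overlapped, and the log2 difference was 0.02 ± 0.09 SE with a 95% interval from −0.17 to 0.20 (limma adjusted p = 0.929). At day 5 it read 720, 759 and 786 CPM in WT and 1110, 1283 and 958 CPM in KO. Every KO library at day 5 lay above every WT library, a 1.48-fold difference of means (log2 0.56 ± 0.09 SE, limma adjusted p = 3.55e-05). Ly6c2 rose with time in both genotypes, 1.60-fold in WT (0.67 ± 0.09 SE, limma adjusted p = 2.21e-05) and 2.33-fold in KO (1.21 ± 0.09 SE, limma adjusted p = 1e-09). The 2 genotype differences were apart by 0.54 ± 0.13 SE (limma interaction, adjusted p = 0.00635, or 0.0907 without a trend in the moderation).

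Ly6c1, the near copy, had almost no reads. The WT libraries held 0, 0 and 1 reads at day 3 and 0, 3 and 1 at day 5, and the KO libraries held 6, 1 and 2 at day 3 and 2, 9 and 5 at day 5. Of all reads assigned to either copy in the 12 libraries, 30 of 14541 went to Ly6c1, or 0.206% (exact Clopper-Pearson 95% interval 0.139 to 0.294%, which covers counting error only). At day 3 the KO to WT ratio was 8.32 with a counting interval from 1.15 to 365, from 9 and 1 reads, and limma gave no call (log2 1.01 ± 0.49 SE, adjusted p = 0.161). At day 5 Ly6c1 was called higher in KO although libraries of the groups overlapped (3.33 ± 2.13 CPM against 0.746 ± 0.851 CPM, log2 1.30 ± 0.49 SE, limma adjusted p = 0.0387). That call was lost with edgeR (adjusted p = 0.0576), with a pseudocount of 0.1 (0.0858), and without KO day 5 replicate 2 (0.175), KO day 5 replicate 3 (0.0852), WT day 5 replicate 1 (0.178) or WT day 5 replicate 3 (0.0866). Reads of the copies may have been divided, so Ly6c1 and Ly6c2 were also summed, and the sum differed by 0.56 ± 0.09 SE at day 5 (limma adjusted p = 3.4e-05) and by 0.02 ± 0.09 SE at day 3 (0.911).

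Ly6a, the Sca-1 antigen, was higher in KO at each day. At day 3 it read 392, 393 and 361 CPM in WT and 578, 565 and 610 CPM in KO, with no overlap (1.53-fold, log2 0.61 ± 0.09 SE, limma adjusted p = 6.85e-05). At day 5 it read 430, 370 and 395 CPM in WT and 745, 1021 and 828 CPM in KO, again with no overlap (2.17-fold, log2 1.11 ± 0.09 SE, limma adjusted p = 5.7e-09). In WT the days overlapped (log2 0.06 ± 0.09 SE, limma adjusted p = 0.767), while in KO Ly6a rose 1.48-fold from day 3 to day 5 (0.55 ± 0.09 SE, limma adjusted p = 7.84e-05). The genotype difference was larger at day 5 by 0.49 ± 0.13 SE (limma interaction, adjusted p = 0.0158). This last call was lost without a trend in the moderation (adjusted p = 0.129) and without WT day 5 replicate 2 (0.0534).

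Ly6e, also called Sca-2 in mouse, was higher in KO at each day and rose with time in each genotype. It read 559, 536 and 495 CPM in WT and 673, 650 and 737 CPM in KO at day 3 (1.30-fold, log2 0.37 ± 0.08 SE, limma adjusted p = 0.00155). At day 5 it read 668, 660 and 628 CPM in WT and 1144, 1139 and 987 CPM in KO (1.67-fold, log2 0.74 ± 0.08 SE, limma adjusted p = 1.32e-07). The genotypes did not overlap at either day, while the WT libraries at day 5 overlapped the KO libraries at day 3. The rise with time was 1.23-fold in WT (0.30 ± 0.08 SE, limma adjusted p = 0.0138) and 1.59-fold in KO (0.66 ± 0.08 SE, limma adjusted p = 6.85e-07). The WT rise lost its call without a trend (adjusted p = 0.127) and without any 1 of WT day 3 replicate 3, WT day 5 replicate 1 or WT day 5 replicate 2 (0.0536 to 0.0849). The interaction of 0.36 ± 0.11 SE (limma adjusted p = 0.0311) lost its call without a trend (adjusted p = 0.174). It also lost it without any 1 of 7 libraries, replicates 1 and 2 of both groups at day 3, WT day 5 replicates 2 and 3 and KO day 5 replicate 1 (adjusted p up to 0.0949).

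Thy1, the pan-T-cell glycoprotein, was higher in KO at each day and fell with time in WT. At day 3 it read 785, 828 and 847 CPM in WT and 1087, 1055 and 1249 CPM in KO, with no overlap (1.38-fold, log2 0.46 ± 0.12 SE, limma adjusted p = 0.012). That call was lost without WT day 3 replicate 1 (adjusted p = 0.0556), without KO day 3 replicate 3 (0.0764) and without a trend (0.111). At day 5 it read 638, 594 and 618 CPM in WT and 757, 1299 and 887 CPM in KO (1.59-fold, log2 0.63 ± 0.12 SE, limma adjusted p = 0.00031). The lowest KO library at day 5 stood above the highest WT library, and the value of 1299 CPM belonged to KO day 5 replicate 2, without which the log2 difference was 0.41 (limma adjusted p = 4.38e-05). In WT, Thy1 fell from day 3 to day 5 (log2 −0.41 ± 0.12 SE, limma adjusted p = 0.0347), a call lost without any 1 of the 6 WT libraries (adjusted p up to 0.118). It was also lost with a pseudocount of 0.1 (limma adjusted p = 0.0509), with no filter (0.0726) and without a trend (0.204). In KO the difference between days was −0.24 ± 0.12 SE (limma adjusted p = 0.147), and without KO day 5 replicate 2 it was −0.46 (1.16e-05). The interaction was 0.17 ± 0.17 SE (limma adjusted p = 0.594), and −0.05 without that library.

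**Figure D3:**
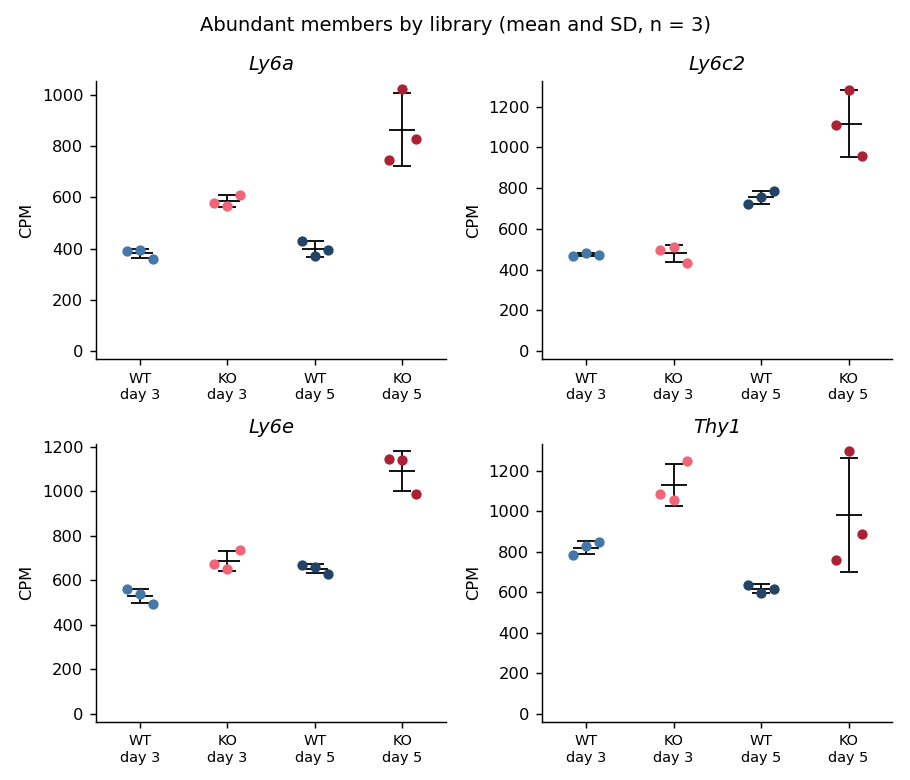
CPM of Ly6a, Ly6c2, Ly6e and Thy1 in each of the 12 libraries. Points are libraries, and lines are the mean and SD of 3 libraries per group. In every panel the KO libraries at day 5 lie above the WT libraries at day 5, and at day 3 only the Ly6c2 genotypes overlap.

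Ly6g, the neutrophil antigen, was higher in KO at each day and rose with time in KO. At day 3 the WT libraries held 0 reads each and the KO libraries 2, 9 and 5 reads, or 0.994, 4.87 and 2.73 CPM. Against the floor of 3 reads over the WT group, Ly6g was at least 4.93-fold higher in KO (log2 1.82 ± 0.40 SE, limma adjusted p = 0.00252). At day 5 Ly6g stood at 0.584, 0.557 and 0 CPM in WT and at 38.8, 56.1 and 65.7 CPM in KO (53.5 ± 13.6). All 3 KO libraries lay far above every WT library. From 255 and 2 reads the ratio was 142, with a counting interval from 38.8 to 1176, and the fitted log2 difference was 5.30 ± 0.40 SE (limma adjusted p = 9.06e-10). Within KO, Ly6g rose 18.7-fold from day 3 to day 5 (log2 3.92 ± 0.40 SE, limma adjusted p = 1.04e-07). In WT, with 2 reads in all, the days gave 0.43 ± 0.40 SE (limma adjusted p = 0.575). The interaction was 3.49 ± 0.56 SE (limma adjusted p = 0.000235), but on a scale nearer to the reads it was not called, with 2.57 at a pseudocount of 0.1 (adjusted p = 0.172) and 1.63 by edgeR (0.863). With no WT read at day 3, the size of the day 3 ratio is not measured, so these data do not show whether the fold between genotypes grew.

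Markers of neutrophils and other myeloid cells were read beside Ly6g. Of 20 listed, 8 had no read in any library, among them the granule and neutrophil genes S100a9, Elane, Mpo, Camp, Ltf and Lcn2, the receptor gene Csf3r and Retnlg. The summed level per library was 1.13 to 3.32 CPM in WT and 7.03 to 16.4 CPM in KO at day 3, and 5.26 to 5.65 CPM in WT and 33.9 to 42.7 CPM in KO at day 5. Mmp9 rose at day 3, beside 11.2% of all tested genes, and Mmp9, Itgam and Cd68 rose at day 5, beside 16.5%. Of the 5 markers tested, 4 had at most 1 WT library at the 1 CPM of the filter and so entered through KO. The count and direction of the calls of those 4 are therefore without weight. Cd68, the exception, reached 1 CPM in 5 WT and 6 KO libraries. It read 12.2 ± 4.55 CPM in KO and 3.78 ± 0.784 CPM in WT at day 5 (log2 1.43 ± 0.36 SE, limma adjusted p = 0.00302). Mmp9, a secreted metalloprotease, read 15.3 ± 2.21 CPM in KO and 0.575 ± 0.584 CPM in WT at day 5. Itgam, the integrin chain CD11b that effector CD8 T cells also carry, read 6.97 ± 1.82 CPM in KO and 0.383 ± 0.332 CPM in WT. Cxcr2, a neutrophil receptor gene, read 1.73 CPM in KO and 0.382 CPM in WT at day 3, and 2.13 and 0.374 CPM at day 5. Csf1r read 3.03 ± 3.92 CPM in KO at day 3 and 0.647 ± 1.12 CPM at day 5, and 0 in WT. Neither was called at either day. In the KO day 5 libraries, where Ly6g had 255 reads, 11 of the 20 markers had no read and the rest had reads. In the WT day 5 libraries 15 of the 20 had no read. Which cells carried the Ly6g reads was not tested.

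Ly6k and Ly6d were at or near the floor. Ly6k held 6, 3 and 5 reads in WT and 5, 2 and 9 in KO at day 3 (log2 −0.04 ± 0.48 SE, limma adjusted p = 0.969). At day 5 it held 2, 5 and 6 reads in WT and 0, 0 and 3 in KO. Only 1 KO library at day 5 had a Ly6k read, and it overlapped the WT libraries. The KO to WT ratio was 0.256 with a counting interval from 0.0469 to 0.933 (log2 −1.21 ± 0.48 SE, limma adjusted p = 0.0501). It was called with a pseudocount of 0.1 (adjusted p = 0.0193) and without any 1 of KO day 3 replicates 2 and 3, WT day 5 replicate 1 and KO day 5 replicate 3 (adjusted p down to 0.00845). Its fall from day 3 to day 5 in KO was called (log2 −1.30 ± 0.48 SE, limma adjusted p = 0.0402), but not by edgeR (adjusted p = 0.0902) or without any 1 of KO day 3 replicates 1 and 3 and KO day 5 replicates 1 and 2 (up to 0.198). The call was also lost with a pseudocount of 5, no filter, no trend or only the libraries compared (limma adjusted p = 0.0535 to 0.0845). Ly6d had 0 reads in each of the 12 libraries, which allows up to 0.571 CPM in WT and 0.527 CPM in KO at day 3, and 0.569 CPM in WT and 0.632 CPM in KO at day 5, counting error only.

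**Figure D4:**
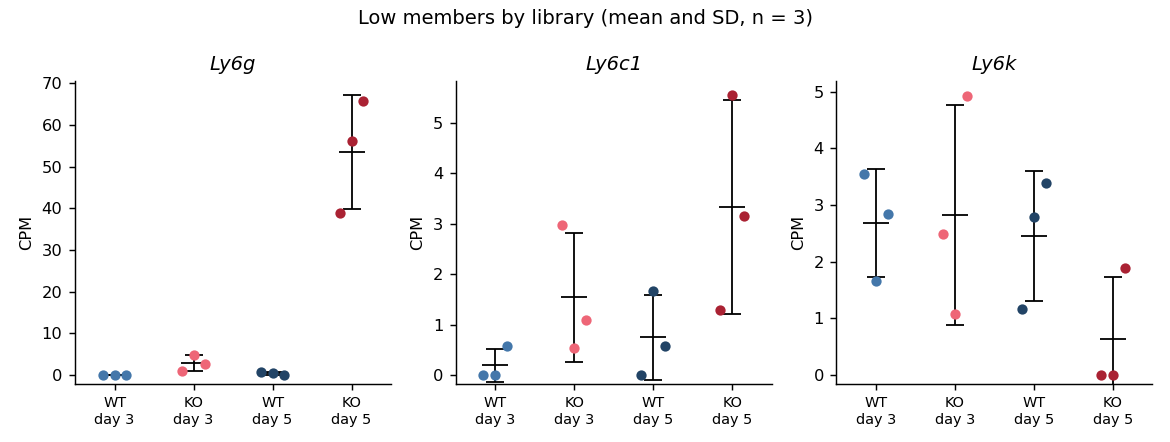
CPM of Ly6g, Ly6c1 and Ly6k in each of the 12 libraries, with the mean and SD of 3 libraries per group and a separate vertical axis for each gene. Ly6g reaches 38.8 to 65.7 CPM in KO at day 5, whereas Ly6c1 and Ly6k stay within a few reads in every group.

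Markers of B cells and plasmacytoid dendritic cells, whose progenitors carry Ly6d, were read beside it. Of 12 listed, 5 had no read in any library, among them Ms4a1, Blnk, Cd22 and Siglech, and the summed level per library was 146 to 212 CPM over all groups. Of 5 tested, 1 rose (Tcf4) and 1 fell (Irf8) at each day, and T cells express both. Over all tested genes, 11.2% rose and 7.23% fell at day 3, and 16.5% and 22.9% at day 5. Cd79b read 4.77 CPM in WT and 5.14 CPM in KO at day 3, and 3.81 and 3.58 CPM at day 5. Ebf1 read 0.571 CPM in WT and 2.65 CPM in KO at day 3, and 0.743 and 1.67 CPM at day 5. Cd79b, Ebf1 and Vpreb3 were not called. Tcf4, a transcription factor, read 53.7 CPM in KO and 17.9 CPM in WT at day 5, and Irf8 read 122 and 169 CPM.

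Summed over the 7 Ly6 genes, the level was 1387 ± 50.7 CPM in WT and 1757 ± 29.4 CPM in KO at day 3, and 1809 ± 13.6 CPM in WT and 3129 ± 340 CPM in KO at day 5. The sums of WT at day 5 and of KO at day 3 were close, and KO at day 5 stood apart. A sum does not depend on how reads were divided among these genes. Ly6a, Ly6c2 and Ly6e made up nearly all of it.

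Beyond the 8 genes, 39 other members of the Ly6/uPAR superfamily were listed, and 26 of them had no read in any library. Of 6 that could be tested, Ly6g5b rose in KO at day 3, beside 11.2% of all tested genes. At day 5 Ly6g5b and Cd59a rose, beside 16.5% of all tested genes. Cd59a entered the tests only through KO libraries, so its direction was set by the filter. Ly6g5b read 10.3 ± 2.06 CPM in KO and 5.33 ± 1.29 CPM in WT at day 3, and 35.8 ± 4.25 CPM in KO and 15.01 ± 3.39 CPM in WT at day 5 (log2 1.22 ± 0.25 SE, limma adjusted p = 0.000544). Cd59a, which encodes an inhibitor of complement, read 2.97 ± 1.39 CPM in KO at day 5 and was at 0 in all WT libraries of that day. Lynx1 and Lypd6b, the other members named by rule, were not called (limma adjusted p from 0.166).

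Other GPI-anchored surface proteins moved in both directions. Of 23 listed, 16 were tested. At day 3, 4 rose in KO (Cd52, Cd160, H2-Q7 and Ulbp1) and 1 fell (Bst2), beside 11.2% and 7.23% of all tested genes, with a median log2 difference of 0.36. At day 5, 6 rose, namely Cd52, Cd160, Ulbp1, Cd55, Nt5e and Cd109, and Cd24a, Cd48 and Sema7a fell, beside 16.5% and 22.9% of all tested genes, with a median of 0.08. Cd109 entered the tests only through KO libraries. Over all tested genes the median was −0.01 at day 3 and −0.08 at day 5, which holds for the medians of the lists that follow. Cd52, a short lymphocyte glycoprotein, read 1342 ± 34.9 CPM in KO and 717 ± 16.1 CPM in WT at day 5 (log2 0.90 ± 0.07 SE, limma adjusted p = 2.77e-09). Cd160, a receptor of cytotoxic lymphocytes, read 98.2 ± 13.3 CPM in KO and 29.4 ± 2.22 CPM in WT (log2 1.70 ± 0.15 SE, limma adjusted p = 9.81e-09).

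Few of the genes that build the GPI anchor and attach it were called higher in KO. Of 31 listed, 30 were tested. At day 3, 0 were called in either direction by limma, where an unadjusted p under 0.05 gave 2 higher and 1 lower and edgeR gave 0. Of all tested genes, 11.2% were called higher and 7.23% lower at that day. At day 5, 1 was higher (Pigz) and 7 were lower (Piga, Pigq, Pigu, Dpm1, Gpaa1, Mppe1 and Mpdu1), and without KO day 5 replicate 2 the counts were 1 and 4. The falls, 7 of 30, are near the 22.9% of all tested genes that were lower at day 5. The 1 rise stands beside 16.5% of all tested genes, and Pigz entered the tests only through KO libraries. The median log2 difference was −0.04 at day 3 and −0.17 at day 5. Gpaa1, a subunit of the transamidase that attaches the anchor, read 44.4 ± 7.89 CPM in KO and 69.8 ± 7.59 CPM in WT at day 5. Dpm1, the catalytic subunit of dolichol phosphate mannose synthase, read 16.5 ± 5.31 CPM in KO and 33.5 ± 5.29 CPM in WT at day 5. Both differences passed the test (limma adjusted p = 0.000639 for Gpaa1 and 0.00075 for Dpm1).

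Interferon induces Ly6a, Ly6c and Ly6e in many mouse cells, so interferon-stimulated genes were read beside them. All 36 listed were tested. At day 3, 6 rose and 4 fell in KO, beside 11.2% and 7.23% of all tested genes, with a median log2 difference of −0.02. At day 5, 17 rose and 5 fell, beside 16.5% and 22.9% of all tested genes, with a median of 0.45. Mx1, a dynamin-like antiviral protein, read 17.3 ± 4.12 CPM in KO and 4.54 ± 1.64 CPM in WT at day 3, and 46.4 ± 5.77 and 5.11 ± 1.94 CPM at day 5 (log2 2.99 ± 0.29 SE, limma adjusted p = 3.05e-08). Gbp4, a guanylate-binding protein, was higher in KO at both days, with 194 ± 25.7 against 119 ± 2.94 CPM at day 5. Ifi27l2a was lower in KO at day 3, at 36.7 ± 6.17 against 126 ± 3.10 CPM, and higher at day 5, at 166 ± 40.7 against 111 ± 14.7 CPM. Psmb9, an immunoproteasome subunit, was lower in KO at both days, with 293 ± 64.7 against 515 ± 13.6 CPM at day 5, and Psmb8, Iigp1 and Igtp also fell at day 5. The list thus held falls of immunoproteasome genes, of Iigp1 and Igtp and, at day 3, of Ifi27l2a, beside rises of Mx1 and other antiviral genes. Its summed level per library was 3604 to 3631 CPM in WT and 3144 to 3533 CPM in KO at day 3. At day 5 it was 3966 to 4255 CPM in WT and 3609 to 4169 CPM in KO. The part of these genes in the Ly6 differences was not tested.

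Few of the genes around the cluster were called higher in KO. Of 47 listed within 1 Mb of a Ly6 member, 20 were tested, some of them Ly6 relatives such as Ly6i and Lynx1. At day 3, Gsdmd rose and Them6 and Scrib fell in KO, beside 11.2% and 7.23% of all tested genes. At day 5, 0 rose by limma, by an unadjusted p under 0.05 or by edgeR, and 4 fell, namely Them6, Zfp41, Scrib and Jrk, or 2 without KO day 5 replicate 2. The 0 rises of 20 stand beside 16.5% of all tested genes higher at day 5, which would be only a few of 20 genes. The 4 falls of 20 are near the share of all tested genes lower at day 5, 22.9%. The median log2 difference of the 20 was −0.14 at day 3 and −0.25 at day 5. Them6, at chr15:74721204-74724639, read 16.6 ± 1.37 CPM in KO and 41.7 ± 3.18 CPM in WT at day 5 (log2 −1.28 ± 0.16 SE, limma adjusted p = 1.57e-06). Ly6i, which lies between Ly6e and Ly6a at chr15:74979534-74983430, read 0.832 CPM in KO and 0.383 CPM in WT at day 5 (log2 0.31 ± 0.49 SE, limma adjusted p = 0.657).

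**Figure D5:**
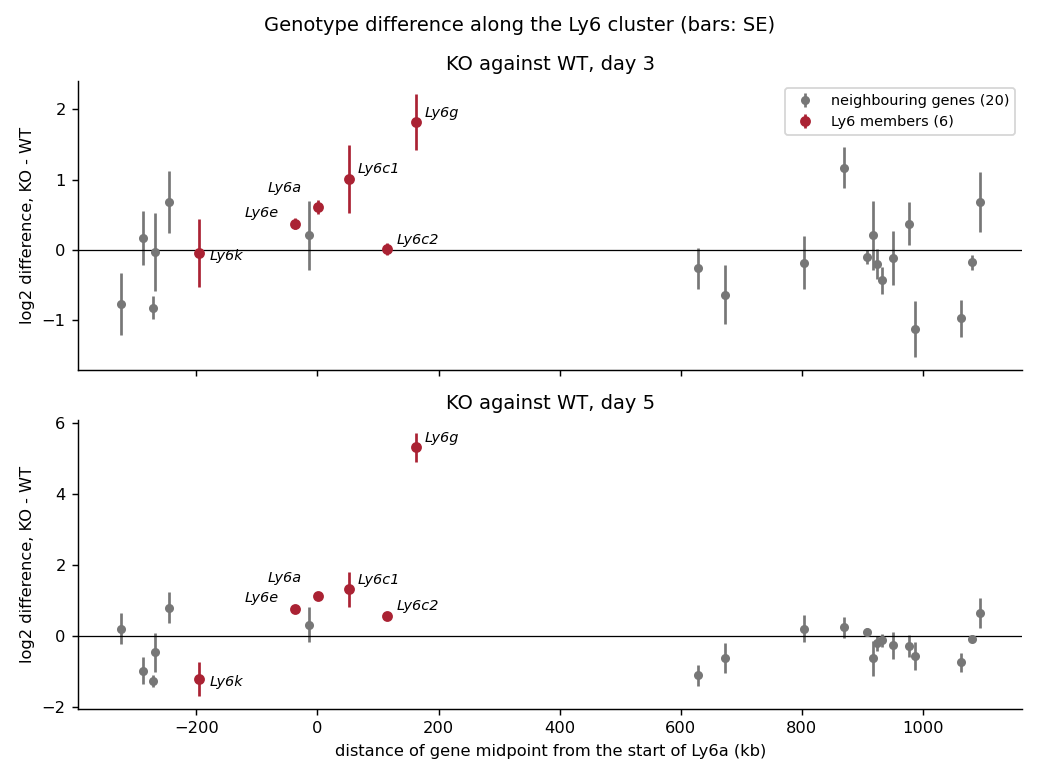
Fitted log2 difference of KO minus WT for the 6 tested Ly6 members and the 20 tested neighbours, against the distance of each gene's midpoint from the start of Ly6a in kb. Bars are SE, and each day has its own vertical axis. The members called higher lie between Ly6e and Ly6g, and no neighbour was called higher at day 5, beside 16.5% of all tested genes.

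The CD8 T cell markers moved in both directions. Of 10, 0 rose at day 3 by limma (1 at an unadjusted p under 0.05, 0 by edgeR) and 4 fell (Cd2, Cd5, Cd8a and Cd8b1), and at day 5, 5 rose (Cd3g, Cd3d, Cd3e, Cd247 and Cd8a) and 1 fell (Cd5). Over all tested genes, 11.2% were higher and 7.23% lower in KO at day 3, and 16.5% and 22.9% at day 5. The median log2 difference of the 10 was −0.16 at day 3 and 0.25 at day 5. Cd3g, a chain of the T cell receptor complex, read 276 CPM in KO and 129 CPM in WT at day 5. Of 12 markers of CD4 T, erythroid, endothelial, stromal, epithelial and NK cells, 6 were tested, and their summed level per library was 43.2 to 54.8 CPM in WT and 61.7 to 80.0 CPM in KO at day 3, and 61.6 to 71.9 CPM in WT and 82.8 to 105 CPM in KO at day 5. Hba-a1 rose at day 3 and Hba-a1 and Klrb1c at day 5 (1 of them without KO day 5 replicate 2), with medians of 0.47 and 0.17, and 4 of the 12 (Cdh5, Krt5, Krt14 and Ncr1) had no read in any library. Their part in the Ly6 differences was not tested.

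Finally, the genes with the profile most like each member over the 12 libraries were found by the root mean square (RMS) difference of mean-centred log2(CPM + 1) values among 8879 genes. For Ly6g they were the granzyme genes Gzme (RMS 0.62) and Gzmf (0.63) and the carbonic anhydrase gene Car2 (0.66). Gzme was at 0 CPM in WT at both days and read 4.48 CPM in KO at day 3 and 33.0 CPM at day 5. For Ly6a the nearest was the cyclin gene Ccnd2 (RMS 0.12), which read 1922 CPM in WT and 3096 CPM in KO at day 3, and 1927 and 4037 CPM at day 5. Pdlim2 and Chd9 followed. For Ly6c2 they were Bcl9l, Ccni and Foxn3 (RMS 0.12 to 0.14), and for Ly6e they were Aftph, Tbcel and Tab2 (RMS 0.08). Mrpl52 was nearest to Thy1 (RMS 0.14), before Itpr1 and Dnajc25. Those nearest to Ly6c1 (Kctd14, Pdlim7 and Tulp4, RMS from 0.40) and to Ly6k (Prkci, H2ac22 and Hrob, RMS from 0.43) were matched to profiles of a few reads.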

How the data were processed

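Naive CD8 T cells were cultured and their RNA, 500 ng per library, was made into QuantSeq 3′ libraries, per the labels' protocols. Tags come from transcript ends, so values do not scale with gene length. The deposited values carry the name TPM. Every column adds up to 1000000, and dividing by 1 step gives whole numbers, within 0.001 read, for 100% of values. They are therefore taken as CPM that the authors made by dividing reads by the library total, and whole reads were recovered for counting. The planned test assumed TPM or CPM and was kept. Per the submitters' processing notes the builds are GRCm39 and mm10. The sources used here do not state the aligner, counter, annotation or strand setting. Of 25655 gene identifiers, 25600 were found in GENCODE M21 (GRCm38), which gave positions and coding sequences, and promoters came from RefSeq on GRCm38.p6.

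Genes with at least 1 CPM in at least 3 libraries (11417) were fitted on log2(CPM + 1) in limma 3.58.1 (R 4.3.3) using a mean for each of 4 groups, a trend and 21.1 degrees of freedom. Tests were two-sided with Benjamini-Hochberg adjustment over all genes and a threshold of 0.05. With 1 read worth 0.497 to 0.647 CPM, a floor of 3 reads stands for 0 reads. The fit was repeated with a pseudocount of 0.1 or 5, a filter of 5 CPM or none, median-of-ratios scaling, no trend, only the libraries compared, a replicate block, near copies summed, leaving out each library, and edgeR 4.0.16 with TMM on whole reads. Fits were tested on simulated data. The members and lists were chosen with earlier results of these data known. Named are all members, up to 4 genes per list with the smallest adjusted p, the 3 genes most like each member, and members of small counts; a few others, Piga, Pigu, Mppe1, Mpdu1, Cd55, Nt5e, Ly6i and Ezh2 among them, were named after their values were seen. Some list genes are counted but not reported here by name.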

Additional observations from a re-analysis of the deposited data

Results flagged for a closer look

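For 4 members the difference between KO and WT was called larger at day 5 than at day 3, by the limma interaction term over all genes. The log2 difference at day 5 minus that at day 3 was 3.49 for Ly6g, 0.493 for Ly6a, 0.54 for Ly6c2 and 0.363 for Ly6e. For Ly6g it rests on a WT group with 0 reads at day 3 and was 1.63 by edgeR (adjusted p = 0.863). For Ly6a and Ly6e the KO libraries lay above WT at both days, and for Ly6c2 only at day 5. Without a trend in the moderation the call was lost for Ly6a (adjusted p = 0.129), Ly6c2 (0.0907) and Ly6e (0.174). It was also lost for Ly6a without WT day 5 replicate 2 (0.0534) and for Ly6e without any 1 of 7 libraries (up to 0.0949).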

How the results depend on the processing

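The 4 calls at day 3 and 6 at day 5 kept within 1.5 times under every alternative run, at 3 to 4 and 5 to 7 when 1 library was left out. The calls over time in WT and the interaction moved more. Without a trend in the moderation, 1 member was called over time in WT and 1 in the interaction, and 773 and 884 genes were called over all. With only the libraries compared, 1915 genes were called over time in WT. Leaving out 1 library gave 1 to 3 members and 818 to 1775 genes over time in WT, and 2 to 4 members in the interaction. The signs that turned were those of near-zero or few-read values. Ly6k at day 3 was 0.0056 with a pseudocount of 5 and 0.104 by edgeR, and the Ly6c1 interaction was −0.233 with a pseudocount of 0.1 and −0.541 by edgeR. Leaving out 1 library gave −0.0308 to 0.0859 for Ly6c2 at day 3, −0.42 to 0.34 for Ly6k at day 3, −0.34 to 0.18 for Ly6k over time in WT, −0.0729 to 0.684 for the Ly6c1 interaction and −0.0489 to 0.34 for the Thy1 interaction. Beyond these constructions the cause was not tested. Median-of-ratios and TMM scaling moved the median of all genes by less than 0.1.

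No pairing of the samples by replicate number was seen in the values, which does not exclude one. The correlations of deviations between same-numbered libraries lay between −0.014 and 0.042, with 0 of 18 over 0.1. With the replicate block 4 members were called at day 3 and 7 at day 5, Ly6k at day 5 being added (adjusted p = 0.0305). Depth limits Ly6c1, Ly6k and Ly6d, whose groups held at most 16 reads, and the WT side of Ly6g.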
